A study of Mus musculus with 2 samples.

Results

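Hes1, Hes7 and Lfng, genes of the segmentation clock, were examined for peaks of FLAG-tagged Msgn1 in mouse embryoid bodies. Peaks were taken from the authors' list where the midpoint lay in a window set around each gene on mm9. The Hes1 window ran from 29655 to 30270 kb of chromosome 16 and included the gene-poor stretch upstream of the gene. The Hes7 window ran from 68834 to 69036 kb of chromosome 11, and the Lfng window from 140983 to 141191 kb of chromosome 5. They held 10 of the 4087 listed peaks, of which 9 were in the Hes1 window, 1 in the Lfng window and 0 in the Hes7 window. The windows were chosen with the peak list known, so these counts describe the choice as well as the loci, and no test was made on them.

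The A2lox FMsgn1 line of embryonic stem cells (strain given as C57BL/6) carried a FLAG-Msgn1 construct inducible with doxycycline. They were kept with LIF on mouse embryonic fibroblasts and then left for 2 days to form embryoid bodies, floating clumps of differentiating cells. Doxycycline was added at 1 ug/ml and the bodies were fixed 36 h later. The data comprised 1 library of DNA recovered with the anti-Flag M2 antibody and 1 library of input DNA, with no antibody. Both came from induced cells, so no value here separates doxycycline-dependent peaks from others, and the input does not show what an antibody recovers from cells without the tagged protein. With 1 library per group no value below has a replicate error. Msgn1 was switched on from a construct, and its level relative to that of the embryo was not analysed here. The depth of the libraries is unknown from the list.

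The segmentation clock is a set of genes whose transcription rises and falls in cycles in the presomitic mesoderm, the tissue from which the somites, and later the vertebrae and skeletal muscles, form. Hes7 and Hes1 encode basic helix-loop-helix (bHLH) repressors that act downstream of Notch and shut off their own promoters. Lfng encodes Lunatic fringe, a glycosyltransferase of the Golgi that modifies the Notch receptor, and its cyclic transcription in the mouse is known to depend on DNA just upstream of the gene. Msgn1 (mesogenin 1) is a bHLH activator of the same tissue. Proteins of the bHLH class bind the E-box as dimers, Hes repressors also bind the N-box, and Rbpj, the DNA-binding partner of activated Notch, binds sequences with a TGGGAA core.

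Reference promoters of RefSeq (GRCm38.p6), from 250 bases before to 50 bases after the transcription start, were found for 2 of the 3 genes, Hes7 and Lfng. They are shown because both genes are known targets of Notch signalling and because they differ in the peak list, where Lfng had a peak close to the gene and Hes7 had none. Both lie on the plus strand, at chr11:69120203-69120502 for Hes7 and chr5:140607091-140607390 for Lfng. These positions belong to GRCm38.p6 and cannot be set against the mm9 positions of the peaks. Capitals mark matches to the E-box CANNTG and to the Rbpj-type core TGGGAA on either strand. Where capitals run on without a break, the matches touch or overlap.
Hes7 promoter: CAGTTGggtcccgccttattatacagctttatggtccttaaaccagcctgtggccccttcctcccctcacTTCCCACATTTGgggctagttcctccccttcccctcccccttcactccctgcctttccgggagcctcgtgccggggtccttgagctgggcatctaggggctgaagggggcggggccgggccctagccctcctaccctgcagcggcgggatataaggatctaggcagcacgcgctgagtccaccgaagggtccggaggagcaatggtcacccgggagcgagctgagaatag
Lfng promoter: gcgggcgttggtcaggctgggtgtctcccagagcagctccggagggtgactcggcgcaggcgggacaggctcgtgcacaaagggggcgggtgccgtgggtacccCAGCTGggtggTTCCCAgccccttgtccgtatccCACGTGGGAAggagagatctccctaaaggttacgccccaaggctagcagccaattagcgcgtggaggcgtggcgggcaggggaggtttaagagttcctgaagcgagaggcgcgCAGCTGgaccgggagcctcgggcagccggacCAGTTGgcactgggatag

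The Hes7 promoter held 2 E-boxes and 1 Rbpj-type core. The first E-box, CAGTTG, lay at positions -250 to -245 relative to the start. The second, CATTTG, lay at -174 to -169 and directly followed the core, which reads TTCCCA on the printed strand at -180 to -175. The Lfng promoter held 4 E-boxes and 2 Rbpj-type cores. Its CACGTG at -112 to -107 shared bases with the core TGGGAA at -108 to -103. The other Lfng E-boxes were CAGCTG at -146 to -141 and again at 2 to 7, and CAGTTG at 33 to 38, and the other core was TTCCCA at -135 to -130. Each promoter also held 1 N-box (CACNAG), read as CTCGTG on the printed strand, at -116 to -111 in Hes7 and -181 to -176 in Lfng. An E-box was present in 72.3% of the 32851 RefSeq promoters of this length, the N-box in 42.5% and the Rbpj-type core in 25.6%. Among the single forms, CACGTG was in 7.15%, CAGCTG in 16.3%, CAACTG (the reverse complement of CAGTTG) in 13.7% and CAAATG (that of CATTTG) in 13.7%. Such matches are a description of the reference sequence, and no listed peak was shown to cover either of these promoters.

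**Figure D1:**
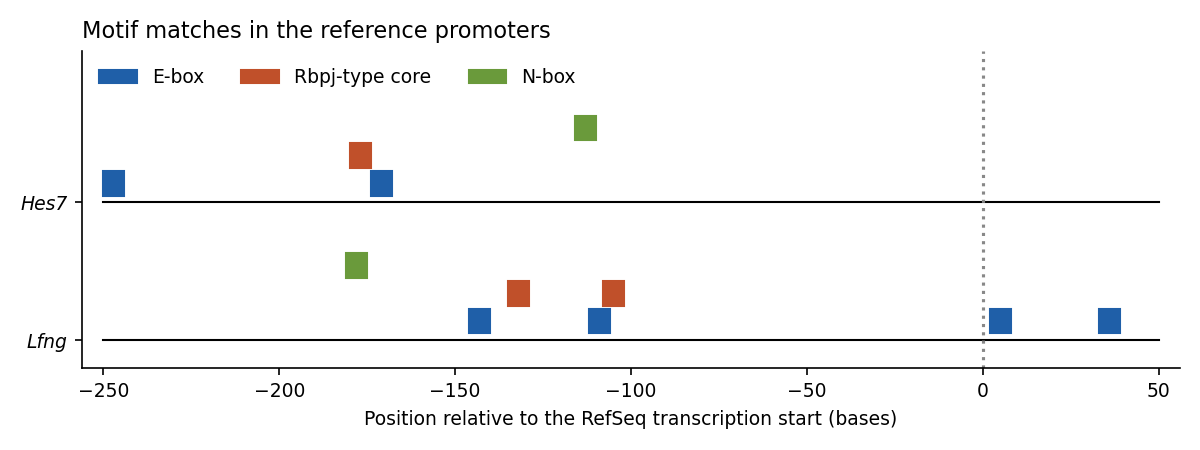
Matches to 3 motifs in the RefSeq promoters (GRCm38.p6) of Hes7 and Lfng, by position in bases relative to the transcription start (dotted line). Blue boxes are E-boxes, orange boxes Rbpj-type cores and green boxes N-boxes. In both promoters an E-box and an Rbpj-type core touch or overlap, near -175 in Hes7 and near -108 in Lfng.

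At Lfng, 1 peak was listed, at chr5:141081174-141081607. It scored 72.8 on the authors' scale, in a list whose scores lay between 50 and 1107 (median 72.8, quartiles 57.9 and 108). The scale of this score is not stated in the file, and the score is used only to rank, filter and describe peaks within the list. The Lfng peak ranked 2051 of 4087, in the middle of the list. It was 434 bp wide, and 3.65% of the listed peaks were narrower. The place of the gene within the window was taken by removing 100 kb from each end, which leaves 8 kb (the RefSeq model of Lfng spans 8.21 kb in GRCm38.p6). On that reading, which is good to about 1 kb, the peak lay 1.39 to 1.83 kb upstream of the start of Lfng, and no other listed peak lay within 200 kb of the gene. The next peaks outside the window were chr5:140151225-140152040, which scored 326 (rank 87) and lay 931 kb before the gene, and chr5:141296304-141297058, which scored 58.5 and lay 205 kb beyond it. In the order of the GRCm38.p6 table, the protein-coding neighbours of Lfng are Grifin and Ttyh3, with 1 non-coding gene, Gm30603, between Grifin and Lfng.

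At Hes7, the gene whose loss disrupts the clock and the vertebrae of the mouse, no peak was listed in the 202 kb window. The nearest listed peaks were chr11:68403490-68404268, with a score of 85.6 (rank 1531), and chr11:69145763-69146388, with a score of 52.03 (rank 3745). They lay 530 kb before and 210 kb beyond the gene, with the gene again taken as what remains after removing 100 kb from each end of its window. Here that leaves 2 kb, less than the 5.15 kb that the RefSeq model of Hes7 spans in GRCm38.p6. The place of Hes7, and so these distances, are thus known only to within some kb. Hes7 lies in a stretch of 741 kb without a listed peak. It was longer than 76.0% of the 4067 stretches between neighbouring peaks of the list, whose median was 278 kb. This comparison counts all stretches equally, whereas a given place lies more often in a long stretch than in a short stretch. The share thus does not mark the place of Hes7 as unusual. An absent peak says that no place there reached the authors' limit in these libraries, and not that Msgn1 is absent from Hes7. In the GRCm38.p6 table Per1, a gene of the circadian clock, and Aloxe3, a lipoxygenase gene, are its coding neighbours, and 3 tRNA genes separate it from Per1.

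The Hes1 window held 9 peaks with scores from 50.6 to 460 and a median of 83.9. None of them was at the place taken for the gene. Hes1 was taken at 30065 to 30068 kb, an interval that was not checked against an annotation of mm9 here; the GRCm38.p6 table places the start of the gene in the same kilobase, whereas its positions of Hes7 and Lfng lie outside their windows. Whether the Hes1 interval is on mm9 was thus not settled, and each distance to Hes1 below, and each count within set flanks of it, depends on it, while positions and distances among the peaks do not. The nearest listed peak was downstream of Hes1, at chr16:30155878-30156723, 87.9 kb from the end of the interval. It was 846 bp wide, scored 116 and ranked 894. The nearest upstream peak, chr16:29910518-29911140, lay 154 kb away and was the lowest of the window, with a score of 50.6 and rank 3976. Between these peaks 245 kb held none. This distance is below the median distance of the list, which likewise counts all stretches equally and is not the median over places.

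Further upstream, 7 peaks formed 1 run, in which each was within 50 kb of the next. The run spanned chr16:29758381-29852323 and lay 213 to 307 kb before Hes1. It opened with chr16:29758381-29759215, 835 bp wide with a score of 222 (rank 253). The next peak, chr16:29761780-29762679, scored 83.9 (rank 1573), and chr16:29762937-29763920 scored 87.6 (rank 1463). These first 3 peaks lay within 5.54 kb, and only 0.257 kb separated the last pair. Singled out after the positions had been seen, such closeness was found in 7 of the 4047 sets of 3 consecutive peaks in the list (0.173%), this one included.

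After a gap of 36.2 kb came the highest peak of the locus, chr16:29800100-29801074. It was 975 bp wide, scored 460 and ranked 33 of 4087. The next highest peak of the run was the first one. The last 3 peaks of the run were weaker than the rest. Peak chr16:29811856-29812793 scored 74.3, chr16:29839292-29840027 scored 68.3 and chr16:29851703-29852323 scored 55.0, so that in this stretch each peak closer to Hes1 scored lower than the one before. The same order went on to the upstream peak nearest the gene. It did not hold over the whole window. The first 3 peaks, farther from Hes1 than the highest, scored 222, 83.9 and 87.6. The downstream peak, the nearest to Hes1 of all, scored 116. These are single values of 1 pair of libraries, and no error can be put on the order.

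**Figure D2:**
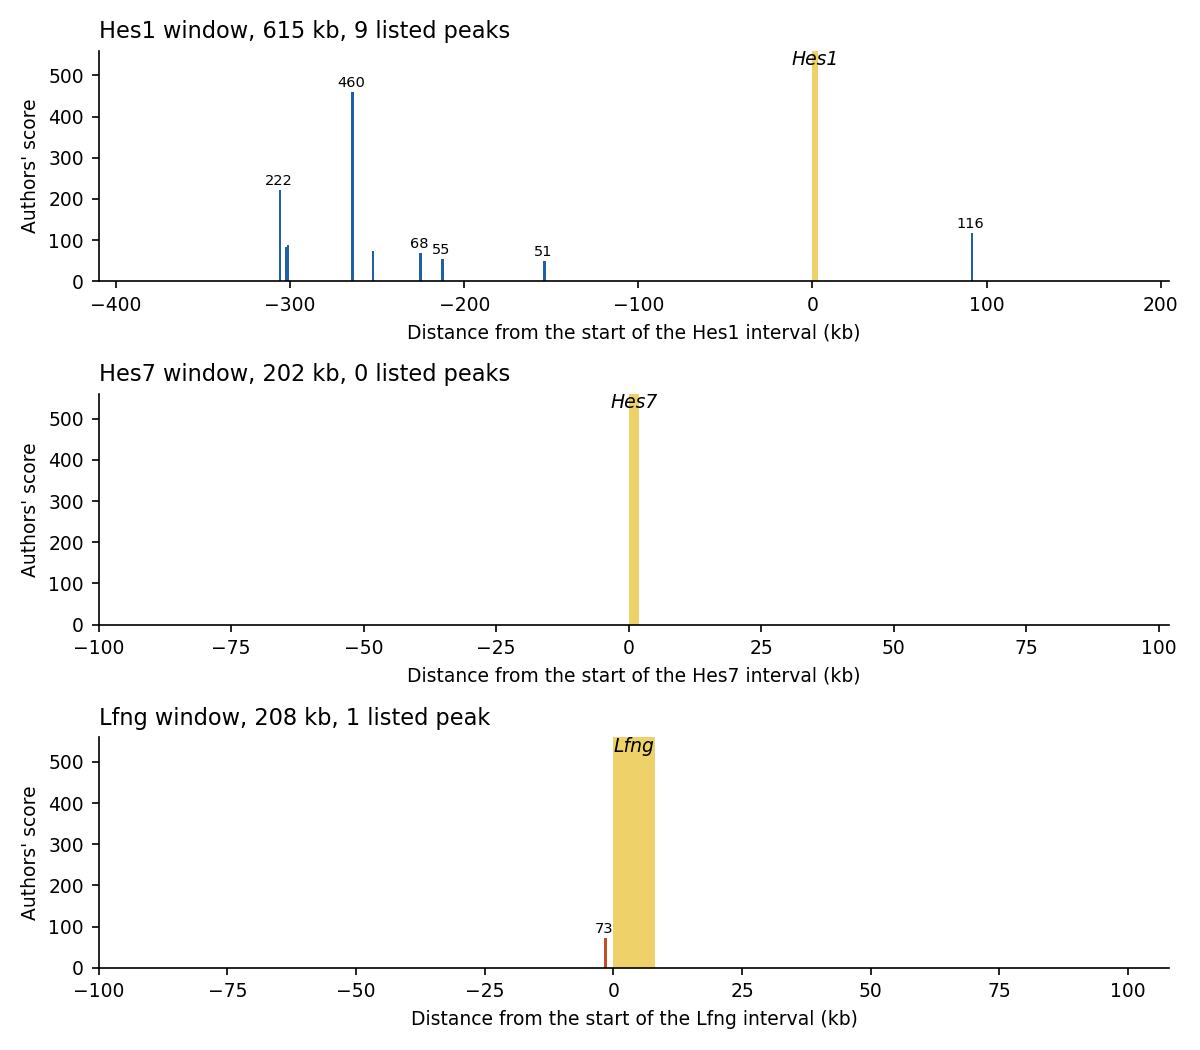
Peaks listed in the windows of Hes1 (upper panel), Hes7 (middle) and Lfng (lower), as bars at their distance in kb from the start of the gene interval (yellow), with the authors' score as height. Bars are drawn at least as wide as needed to be seen, and where peaks lie close together only the highest is numbered. The 460 and 222 peaks stand far upstream of Hes1, Hes7 has no bar, and the Lfng bar lies beside the gene.

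Scores of at least 100 were reached by 3 of the 10 peaks, all in the Hes1 window, and by 28.6% of the whole list. At a limit of 200 there were 2 of the 10, against 7.41% of the list. In all, 6 of the 10 scored above the list's median and 4 below it. Since the peaks were chosen by their place in this same list, nothing is read from these shares. The members were spread over most of the ranking, from 33 to 3976. In width, 7 of the 9 peaks of the Hes1 window exceeded the list's median of 678 bp, with a range of 621 to 984 bp, whereas the Lfng peak was the narrowest of the 10. The 9 peaks covered 7458 bp, or 1.21% of the Hes1 window, where peaks covered 0.114% of the spans of all chromosomes.

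**Figure D3:**
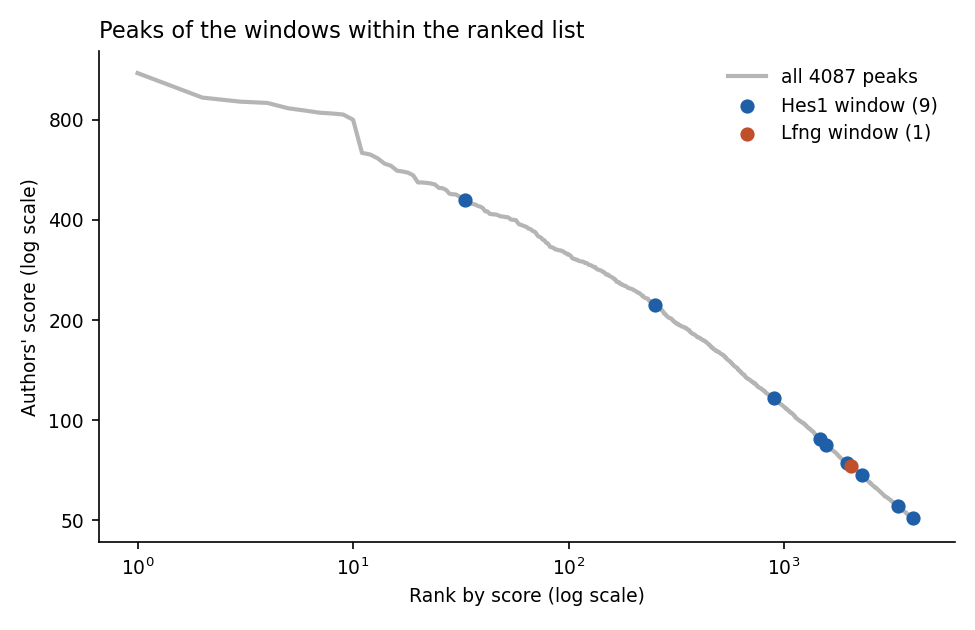
Authors' score of every listed peak against its rank, both on log scales (grey line), with the 9 peaks of the Hes1 window in blue and the 1 peak of the Lfng window in orange. The peaks of the Hes1 window run from rank 33 to rank 3976, and the Lfng peak sits at rank 2051.

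The number of peaks near each gene depended on how far the window reached. The Hes1 window, at 615 kb, held 14.6 peaks per Mb, 9.04 times the 1.62 per Mb of the list. With the genome divided into 4246 tiles of that length from the start of each chromosome, 49.6% held a peak and 1 tile held 9. That tile was on another chromosome, because the tiles are not placed around peaks as the window was. With 100 kb on either side of Hes1, as in the other windows, only 1 peak remained, the downstream one. At equal flanks Hes1 and Lfng thus had 1 peak each and Hes7 had 0. Of tiles of 203 kb, the Hes1 length at these flanks, 23.2% held at least 1 peak. The share was 23.8% for tiles of the Lfng length and 23.1% for tiles of the Hes7 length, so neither 1 peak nor 0 peaks sets these windows apart in number from other stretches of the genome. With a smaller reach of 50 kb, Hes1 had 0 peaks and Lfng kept its 1.

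**Figure D4:**
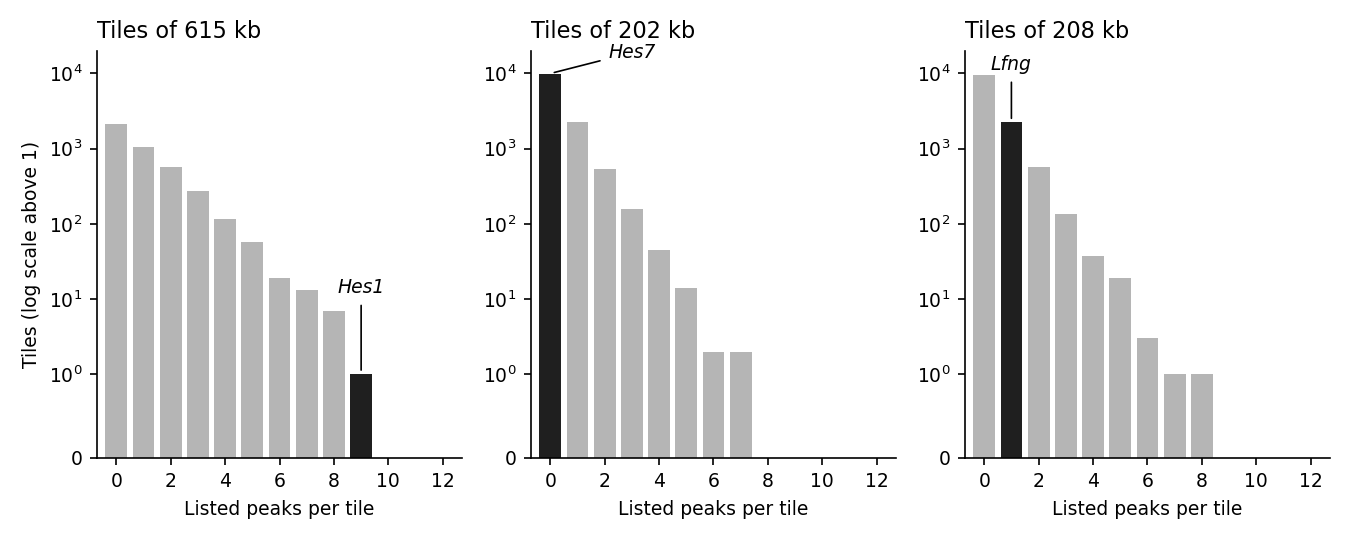
Number of tiles (log scale above 1) by the number of listed peaks they hold, for tiles of 615, 202 and 208 kb, the lengths of the Hes1, Hes7 and Lfng windows. The dark bar is the class with the same count as the named window, which is 9, 0 and 1 peaks. Counts of 0 and 1 are common at about 200 kb, and a count of 9 at 615 kb was found in 1 tile.

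The distal peaks are described as a locus, since nothing in the list ties them to Hes1. In the order of the GRCm38.p6 table, the coding neighbours of Hes1 are Opa1, which encodes a mitochondrial dynamin-like protein and lies on the side of the run, and Cpn2, a carboxypeptidase N subunit, on the other side. Between Opa1 and Hes1 the table lists 8 genes, all lncRNAs: Gm46567, Gm32679, Gm32740, Gm52263, Gm1968, Gm32796, 4632428C04Rik and 9030404E10Rik. Between Hes1 and Cpn2 it lists 6 non-coding genes and pseudogenes, among them Gm26562. The peaks were not assigned to any of these, because the table is of another build. Outside the window the nearest listed peaks were chr16:28857965-28858729, with a score of 53.4, and chr16:30520352-30520915, with a score of 55.4. They lay 796 kb before the window and 250 kb beyond it, so that moving either edge outward by less than that would add no peak.

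The list held 116 runs of 3 or more peaks, in which each peak was within 50 kb of the next, and 7 peaks was the largest number in any run. The run upstream of Hes1 shared that number with chr6:108170077-108260520. The run on chromosome 6 spanned 90.4 kb, with scores from 63.5 to 515 and a median of 134, while the Hes1-side run spanned 93.9 kb, with scores from 55.0 to 460 and a median of 83.9. By highest score the Hes1-side run stood sixth among the 116, and by median score it stood at place 42. On chromosome 6, 4 of the 7 peaks scored at least 100, and 2 of the 7 did upstream of Hes1. With 1 list and no replicates this difference between the runs was not tested.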

How the data were processed

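Data were 1 list of 4087 peaks of the FLAG library over input. It has no header, and the authors called the peaks with MACS, as the deposited peak names show. The last column, a score per peak, is the authors' own value, deposited with no stated scale, and none is below 50. CASAVA 1.4, FastQC and the build mm9 are named in the submitters' processing notes. For the aligner, the filters and the MACS settings, nothing is given in the sources at hand. Starts were read as 0-based and are printed 1-based. Windows, genes and lists were chosen with earlier results of these data known. Every peak with its midpoint in a window is named, and other genes only as neighbours in RefSeq's GRCm38.p6 table. No positions were converted. Other clock and Notch genes could not be placed without an mm9 annotation, nor peak sequences read, and were not analysed here. No test was made: with 1 library per group, depth and error are unknown. Density used the span from first to last peak of each chromosome. Counting was tested on simulated peaks. Python 3.11.15, numpy 2.4.6, pandas 2.3.3 and matplotlib 3.10.9 were used.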

Additional observations from a re-analysis of the deposited data

How the results depend on the processing

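At Hes7, 6 of the alternatives can only remove or join peaks and so could not move a count of 0; counting peaks that overlap the window also gave 0. Over the remaining 33 alternatives, 23 left a value within 1.5 times the reported one. Some of the 23 could not have moved. Joining cannot change the count at Lfng, whose peak lay 215 kb from the nearest other peak. Counting by overlap cannot change any window, since no peak outside lay closer than 105 kb to an edge. The 23 are thus not read as a measure of stability. Among them is the median score at Hes1, 83.9, which became 116 with 100 kb on either side. That value is the score of the 1 peak left there, which is not in the run. The count of 9 at Hes1 became 3 at a score of at least 100, 2 at 200, 0 with 50 kb on either side of the gene and 1 with 100 kb. The count of 1 at Lfng became 0 at a score of at least 100 and 0 at 200. The density ratio of 9.04 became 27.1 at a score of at least 200, on 2 peaks, and was 7.50 to 10.5 otherwise. The run of 7 held 3 peaks with gaps of at most 20 kb and 2 at a score of at least 100. With peaks less than 1 kb apart joined the run held 6, and with those less than 10 kb apart joined it held 5. The share of 615 kb tiles with 9 or more peaks, 0.024%, became 0.047% with tiles begun elsewhere. The wider flanks for the count at Hes1 and the tiles were chosen after seeing the data. These changes follow from fewer peaks, shorter windows or other tile edges. No replicate could be left out. No paired analysis was possible because each group has 1 library.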

Other observations

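In the RefSeq promoters of both Hes7 and Lfng, an E-box touches or overlaps an Rbpj-type core, though only Lfng has a listed peak close by. This arrangement was singled out after the sequences had been seen. It occurred in 638 of the 32851 promoters of this length (1.94%). By base composition the Hes7 promoter is 63.0% G and C and the Lfng promoter 66.7%, against a median of 52.7% over all promoters.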
